A study of Mus musculus with 4 samples.

Results

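The genes described here are 10 genes of T lymphocytes and natural killer (NK) cells, measured by RNA sequencing of whole mouse lung. They were chosen by name, and all 10 were found among the 21931 genes of the table. They are the T cell receptor complex genes Cd3d, Cd3e and Cd3g, the coreceptor genes Cd4 and Cd8a, the cytotoxic granule genes Gzma, Gzmb and Nkg7, and the NK cell receptor genes Klrb1c and Ncr1. The lungs came from C57BL6 mice aged 2 months that had no additional treatment. A pair of libraries carried the genotype label Dnah9 knockout (knockout libraries 1 and 2), 1 library had the genotype Hez, an abbreviation that is used here as given, and 1 library was wild type. Dnah9 encodes a dynein motor protein of motile cilia, and the study asked which lung genes differ when it is knocked out. Which part of the gene was removed, and whether a library held 1 animal or several, was not given in the sources used here.

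Libraries held 15860478 to 16553480 reads assigned to genes, and 3.02% to 3.36% of them were mitochondrial. Dnah9 had 240 and 254 reads in knockout libraries 1 and 2, 420 in Hez and 917 in wild type. Sftpc, a surfactant gene of alveolar type 2 cells, stood at 12170 to 13880 CPM (reads scaled to the effective size of the library) in the 4 libraries. All 10 T and NK cell genes passed the filter on low counts, with 28 to 283 reads per library. The numbers of reads set the precision: 28 reads of Gzmb in wild type gave 1.73 CPM with a 95% exact Poisson interval of 1.15 to 2.50. Such intervals cover counting error only.

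T cells recognise antigen through a receptor whose signal is passed inward by the CD3 chains, and the coreceptors CD4 and CD8 divide them into helper and cytotoxic cells. NK cells lack that receptor and read activating and inhibitory receptors instead. Both kinds of cell kill by releasing granzymes from granules, and NK cells are abundant in mouse lung. In bulk tissue, fewer cells of a type and less RNA per cell cannot be told apart.

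The promoters of 4 of these genes are shown, from RefSeq on GRCm38.p6. Cd3d and Cd3g were picked as neighbours transcribed away from each other. Gzmb was picked for the widest difference from wild type, and Nkg7 for the widest difference between the knockout libraries. No expression value or test here used these promoter sequences. Each runs 5′ to 3′ on the gene's strand from 250 bases before the RefSeq transcription start to 50 after it. For Gzmb the final bases shown were found in no transcript of the gene in another annotation. The same held for Cd3e, which is counted below but not shown. The starts of these genes may therefore be placed otherwise. Capitals mark matches, on either strand, to the core letters of 5 families of factors that act in T and NK cells (RUNX, ETS, GATA, T-box and TCF), which are spelled out after the sequences, and of the TATA box.
Cd3d (chr9:44981536-44981835, plus strand): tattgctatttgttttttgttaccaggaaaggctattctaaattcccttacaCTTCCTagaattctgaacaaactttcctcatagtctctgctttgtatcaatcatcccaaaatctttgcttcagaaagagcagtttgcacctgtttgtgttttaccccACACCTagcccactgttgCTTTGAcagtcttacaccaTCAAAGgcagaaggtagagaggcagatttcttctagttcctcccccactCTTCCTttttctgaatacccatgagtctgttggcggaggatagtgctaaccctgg
Cd3g (chr9:44980382-44980681, minus strand): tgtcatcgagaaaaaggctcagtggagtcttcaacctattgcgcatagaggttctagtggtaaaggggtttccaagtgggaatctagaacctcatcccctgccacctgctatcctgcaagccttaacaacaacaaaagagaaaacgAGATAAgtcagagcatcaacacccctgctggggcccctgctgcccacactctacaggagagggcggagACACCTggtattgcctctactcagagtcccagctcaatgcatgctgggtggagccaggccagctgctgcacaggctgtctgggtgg
Gzmb (chr14:56262285-56262584, minus strand): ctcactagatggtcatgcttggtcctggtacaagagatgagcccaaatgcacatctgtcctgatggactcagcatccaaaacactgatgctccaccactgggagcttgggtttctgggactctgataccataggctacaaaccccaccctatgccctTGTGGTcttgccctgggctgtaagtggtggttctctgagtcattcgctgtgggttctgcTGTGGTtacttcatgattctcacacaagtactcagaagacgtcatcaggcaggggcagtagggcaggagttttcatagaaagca
Nkg7 (chr7:43436888-43437187, plus strand): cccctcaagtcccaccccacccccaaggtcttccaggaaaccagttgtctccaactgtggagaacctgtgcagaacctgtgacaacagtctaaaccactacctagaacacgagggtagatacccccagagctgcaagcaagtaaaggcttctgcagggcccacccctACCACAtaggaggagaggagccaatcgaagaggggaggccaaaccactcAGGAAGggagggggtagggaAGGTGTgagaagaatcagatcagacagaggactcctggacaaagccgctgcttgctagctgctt

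RefSeq promoters were found for 9 of the 10 genes, the exception being Cd4. The RUNX letters, TGTGGT, lay in the promoters of 5 of these 9 genes (Gzma, Gzmb, Nkg7, Klrb1c and Ncr1), against 16.8% of all 32851 promoters of that length. The T-box letters, AGGTGT, also lay in 5 of 9 (Cd3d, Cd3e, Cd3g, Gzma and Nkg7), against 13.7% of all promoters. The ETS letters, AGGAAG, lay in 4 of 9 (Cd3d, Cd3e, Nkg7 and Klrb1c), against 35.4%. The TCF letters, CTTTGA, lay in 1 (Cd3d), against 16.0%. The GATA letters, AGATAA, lay in 1 (Cd3g), against 11.2%. The promoter of Cd8a held none of the 6 motifs. The TATA letters, TATAAA, lay in 0 of 9, against 13.6%. These are matches of letters in a short window and not binding sites.

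Per gene length, the granule genes Gzma and Nkg7 stood highest. Gzma, a granzyme that cleaves after basic residues, ranged from 12.9 to 17.2 FPKM (fragments scaled to gene length and library size, the scale on which genes can be compared). Nkg7, a membrane protein of cytotoxic granules, followed at 4.28 to 9.55 FPKM, and Ncr1 at 2.21 to 3.21 FPKM. The ranges of Gzma, Nkg7 and Ncr1 did not overlap over the 4 libraries. Cd3g, Gzmb, Cd3d, Cd8a and Cd4 formed a group with mean levels of 1.76 to 2.11 FPKM, in which each gene's range overlapped that of its neighbour in the order, as did those of Ncr1 and Cd3g. Klrb1c averaged 1.13 FPKM, below the range of Cd4, and Cd3e averaged 0.876 FPKM, within the range of Klrb1c.

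The 3 CD3 genes lie together on chromosome 9. On GRCm39, Cd3g (ENSMUSG00000002033) spans 44880870 to 44891729 on the minus strand and Cd3d (ENSMUSG00000032094) spans 44893084 to 44898637 on the plus strand, with 1354 bases between them. Cd3e (ENSMUSG00000032093) spans 44910038 to 44920925 on the minus strand. Cd3g, the gamma chain, had 8.55 and 6.80 CPM in knockout libraries 1 and 2, 7.08 CPM in Hez and 5.19 CPM in wild type. Wild type was the lowest of the 4 libraries, and the Poisson intervals of knockout 1 (7.19 to 10.1 CPM) and wild type (4.14 to 6.42 CPM) did not overlap. The edgeR log2 fold of knockout over wild type was 0.56 (SE 0.304, 95% interval -0.14 to 1.27, adjusted p = 0.996), which did not pass.

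Cd3d, the delta chain, had 4.24 and 3.34 CPM in the knockout libraries, 3.51 in Hez and 3.27 in wild type. Cd3e, the epsilon chain, had 3.87 and 3.52 CPM in the knockout libraries, 3.75 in Hez and 3.15 in wild type. Both genes were also lowest in wild type, but the counting intervals of all 4 libraries overlapped. Their log2 folds over wild type were 0.21 (95% interval -0.70 to 1.12) for Cd3d and 0.23 (-0.66 to 1.12) for Cd3e. Summed over the 3 genes, CD3 reads came to 16.7 and 13.7 CPM in the knockout libraries, 14.3 in Hez and 11.6 in wild type. The share of Cd3g among CD3 reads was 51.3% and 49.8% in the knockout libraries, 49.4% in Hez and 44.7% in wild type, with overlapping exact binomial intervals.

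Cd4 (ENSMUSG00000023274, GRCm39 chromosome 6, 124841655 to 124865184), the coreceptor of helper T cells, varied least of the 10 genes over the 4 libraries in FPKM. It had 7.69 and 7.43 CPM in the knockout libraries, 6.41 in Hez and 6.91 in wild type, so both knockout libraries lay above Hez and wild type with overlapping counting intervals. Cd8a (ENSMUSG00000053977, chromosome 6, 71350411 to 71356157), the alpha chain of the coreceptor of cytotoxic T cells, had 8.49 and 5.66 CPM in the knockout libraries, 7.26 in Hez and 5.68 in wild type. Knockout 2 and wild type were nearly equal, and the lower end of the interval of knockout 1 (7.13 CPM) lay above the upper ends of both (6.962 CPM in knockout 2 and 6.965 CPM in wild type). The log2 folds over wild type were 0.13 for Cd4 (95% interval -0.50 to 0.76) and 0.32 for Cd8a (-0.46 to 1.09).

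Gzmb (ENSMUSG00000015437, chromosome 14, 56496295 to 56499717), which encodes the granzyme that cleaves after aspartate and activates caspases, showed the widest difference from wild type. It had 66 and 53 reads in knockout libraries 1 and 2, 49 in Hez and 28 in wild type, or 4.06, 3.34, 2.97 and 1.73 CPM. All 3 libraries without the wild-type label lay above wild type, and the interval of knockout 1 (3.14 to 5.16 CPM) was apart from that of wild type (1.15 to 2.50 CPM), while that of knockout 2 (2.50 to 4.36 CPM) touched it. Its log2 fold of knockout over wild type was 1.09 (SE 0.451, 95% interval 0.05 to 2.13, unadjusted p = 0.0414 by edgeR). Adjusted over all genes, p was 0.929, and it was 0.783 to 0.986 under the other settings that gave an adjusted p. Against Hez the log2 fold was 0.32 (95% interval -0.65 to 1.28, edgeR adjusted p = 0.9997).

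Gzma (ENSMUSG00000023132, chromosome 13, 113230359 to 113237515) had 17.4 and 13.0 CPM in the knockout libraries, 13.3 in Hez and 12.9 in wild type. The interval of knockout 1 (15.4 to 19.6 CPM) lay above those of the other 3 libraries, which overlapped each other. Nkg7 (ENSMUSG00000004612, chromosome 7, 43086497 to 43087673) had 8.79 and 3.90 CPM in the knockout libraries, 7.08 in Hez and 6.05 in wild type. The knockout libraries were thus the highest and the lowest of the 4, differing by 1.15 on the log2 scale, and their mean lay close to wild type. The log2 folds over wild type were 0.24 for Gzma (95% interval -0.31 to 0.78) and 0.07 for Nkg7 (-0.97 to 1.12), and the sign of the Nkg7 value changed with the method.

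Klrb1c (ENSMUSG00000030325, chromosome 6, 128755448 to 128766178) encodes the NK1.1 antigen by which NK cells of C57BL/6 mice are recognised. It had 4.12 and 2.45 CPM in the knockout libraries, 3.75 in Hez and 3.09 in wild type. Ncr1 (ENSMUSG00000062524, chromosome 7, 4340723 to 4348163), which encodes the activating receptor NKp46, had 4.98 and 3.40 CPM in the knockout libraries, 3.99 in Hez and 4.20 in wild type. As with Nkg7, knockout 1 was the highest and knockout 2 the lowest library for both genes, with wild type between them. Unlike for Nkg7, the counting intervals of all 4 libraries overlapped for both genes. The log2 folds over wild type were 0.09 for Klrb1c (95% interval -0.96 to 1.14) and -0.00 for Ncr1 (-0.90 to 0.89). Klrb1c has close relatives in the same cluster, and the gene Gm44511, with 0 reads in every library, overlaps it on the same strand for 8931 bases, so its reads may be incompletely assigned.

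**Figure D1:**
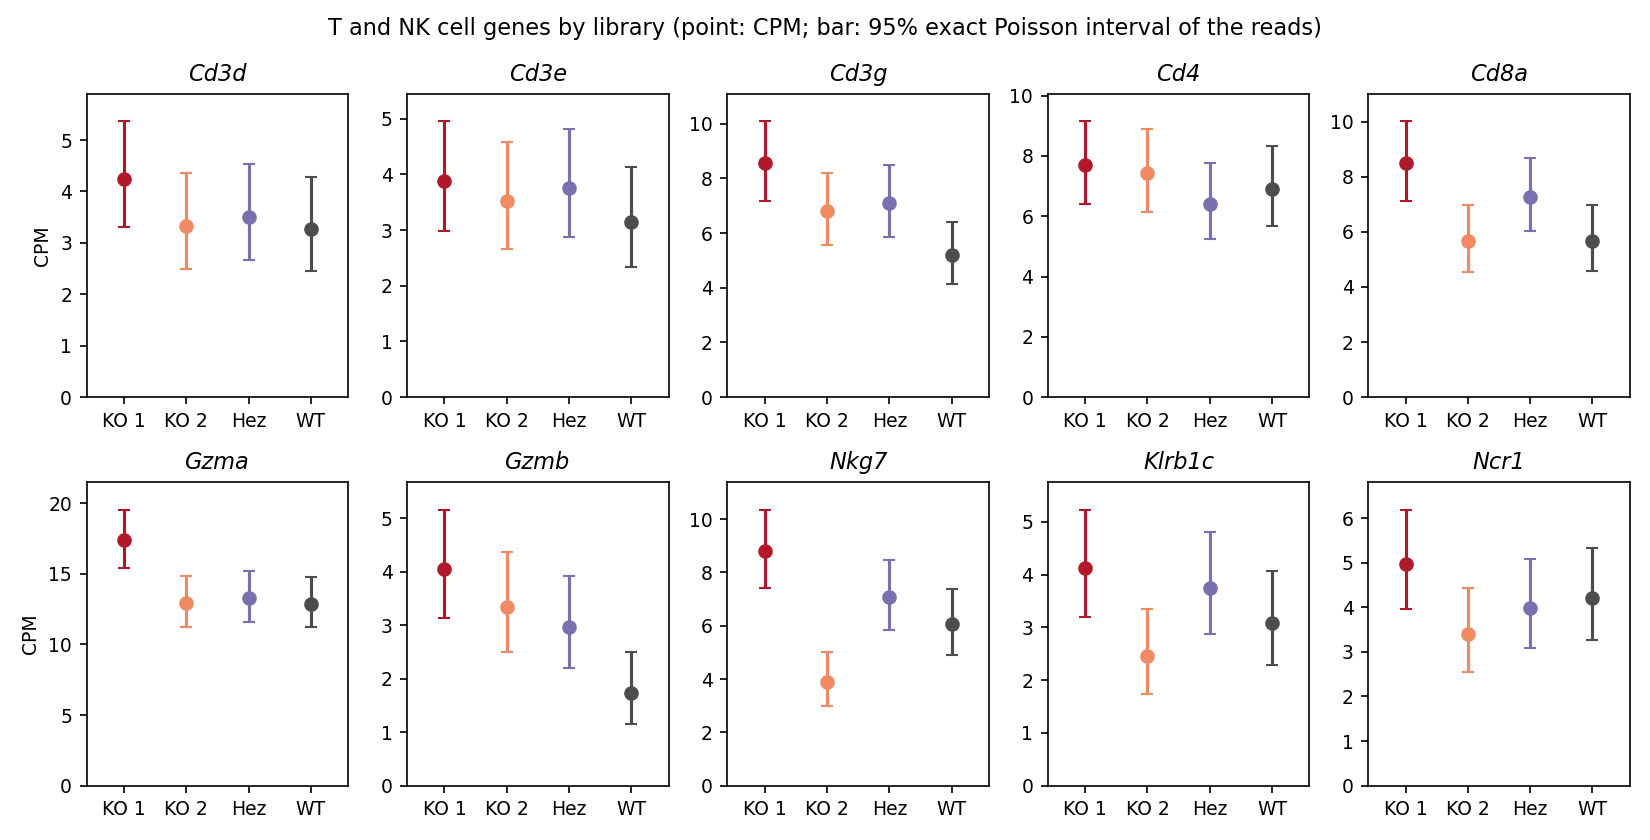
Level of each of the 10 genes in CPM (vertical axes, from 0) in knockout libraries 1 and 2 (KO 1, KO 2), Hez and wild type (WT), with 95% exact Poisson intervals of the reads as bars. Knockout 1 is the highest library in all 10 panels; knockout 2 is the lowest for Cd8a, Nkg7, Klrb1c and Ncr1, and wild type for the CD3 genes, Gzma and Gzmb.

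With edgeR's quasi-likelihood test, adjusted by Benjamini-Hochberg over all genes, 0 of the 10 genes passed the threshold of 0.05 in knockout against wild type, where 0.0531% of 15055 genes did. At an unadjusted p below 0.05 there was 1 member, Gzmb, against 5.18% of all genes. Both limma-voom and limma on log2 FPKM also called 0 of 10. DESeq2 gave none of the 10 genes an adjusted p, so it could call none. Its Wald test gave 0 of them an unadjusted p below 0.05. The edgeR test set 2 libraries against 1, so its error rests on the knockout pair and on the spread of other genes. It assumes that a lone library varies alike. The intervals left room for sizeable differences: for Cd3d they ran from 0.616-fold to 2.18-fold, and for Nkg7 from 0.509-fold to 2.17-fold. The absence of calls therefore does not show equal levels. Of the 10 log2 folds 9 were above 0, with a median of 0.22, against 51.1% and a median of 0.00 over all genes.

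Against Hez 0 of 10 passed in edgeR, where 0.00664% of genes did, with 0 at an unadjusted p below 0.05 and 0 with DESeq2, limma-voom and limma on FPKM. The log2 folds were above 0 for 6 of 10 genes, with a median of 0.09, from -0.19 for Klrb1c to 0.32 for Gzmb. With wild type and Hez taken as 1 group of 2 libraries, 0 of 10 passed in edgeR, where 0.0136% of 14674 genes did. Again 0 had an unadjusted p below 0.05, and limma-voom and limma on FPKM called 0. DESeq2 gave no member an adjusted p there, so it could call none. In that arrangement Gzmb stood at 0.65 (SE 0.367, edgeR adjusted p = 0.976) and Cd3g at 0.32 (SE 0.252, adjusted p = 0.980). These 3 comparisons share the knockout libraries and, in part, the others.

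**Figure D2:**
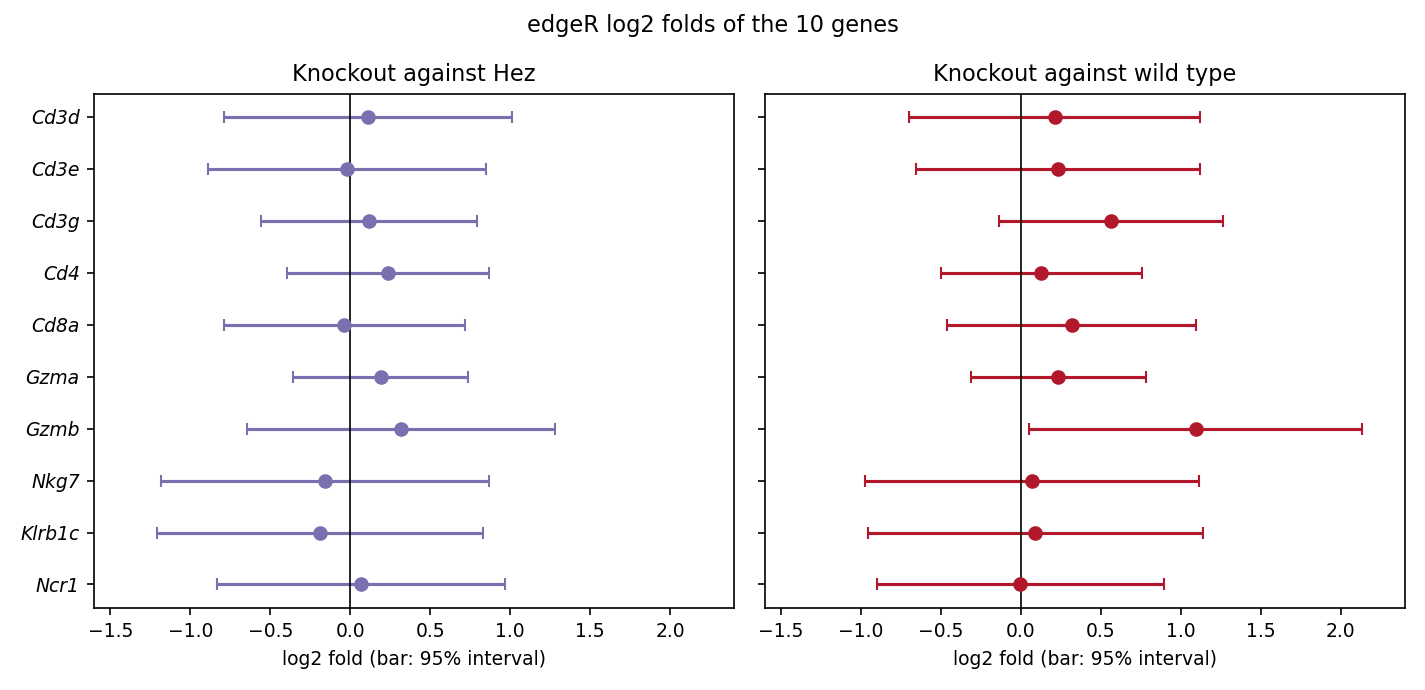
edgeR log2 folds (horizontal axes) of knockout over Hez (left) and of knockout over wild type (right) for the 10 genes, with 95% intervals as bars. All intervals include 0 except that of Gzmb against wild type, which runs from 0.05 to 2.13 and did not pass after adjustment.

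Knockout 1 was the highest of the 4 libraries for all 10 genes, a pattern noticed in these values, where it was the highest for 24.6% of all genes tested. Knockout 1 lay above knockout 2 by a median of 0.38 on the log2 scale over the 10 genes, from 0.05 for Cd4 to 1.15 for Nkg7, against a median of -0.00 over all genes. The difference was 0.5 or more for 4 of 10 (Cd8a, Nkg7, Klrb1c and Ncr1), against 8.28% of the 3199 genes at the same levels. For 6 of 10 genes the gap between the knockout libraries was wider than that between their mean and wild type, close to the 54.5% of all genes. Because these genes mark overlapping cell populations, the 10 values are not independent of each other.

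Both knockout libraries lay above both Hez and wild type for 2 of 10 genes, Cd4 and Gzmb, where 17.5% of all genes did so. Both lay below for 0 of 10, where 16.3% of all genes did. Set against wild type alone, both knockout libraries were higher for 6 of 10 genes (the CD3 genes, Cd4, Gzma and Gzmb), against 33.0% of all genes. Wild type was the lowest of the 4 libraries for 5 of 10 (the CD3 genes, Gzma and Gzmb), against 24.2%. The median difference from wild type over the 10 genes was 0.42 in knockout 1 and 0.02 in knockout 2, against medians of -0.00 and 0.00 over all genes. The members furthest above wild type in both were Gzmb, at 1.18 and 0.90 in knockout libraries 1 and 2, and Cd3g, at 0.71 and 0.38.

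Hez against wild type had 1 library on each side and no test. The median difference over the 10 genes was 0.23 on the log2 scale, against -0.00 over all genes. The widest were Gzmb at 0.74, Cd3g at 0.44 and Cd8a at 0.35, while Cd4 stood at -0.11 and Ncr1 at -0.07. For Cd3g, Hez (0.44) thus lay further from wild type than knockout 2 did (0.38).

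Ratios between members within a library do not depend on how libraries are scaled. Klrb1c and Ncr1 together made up 35.3% and 30.0% of the reads of these genes and CD3 in knockout libraries 1 and 2, 35.1% in Hez and 38.6% in wild type. Knockout 2 had the lowest NK share (95% exact binomial interval 24.9% to 35.4%), which overlapped that of wild type (33.1% to 44.3%). The Cd8a share of coreceptor reads was 52.5% and 43.3% in the knockout libraries, 53.1% in Hez and 45.1% in wild type, so knockout 2 and Hez lay furthest apart, with all intervals overlapping. The Gzmb share of granzyme reads (Gzma and Gzmb) was 18.9% and 20.5% in the knockout libraries, 18.2% in Hez and 11.8% in wild type. Wild type was lowest, and the upper end of its interval, 16.6%, lay within the intervals of the other 3 libraries. Nkg7 made up 33.6% and 23.1% of Nkg7 and Gzma reads in the knockout libraries, 34.7% in Hez and 31.9% in wild type. The interval of knockout 2 (18.2% to 28.7%) lay below those of knockout 1 (29.1% to 38.3%) and Hez (29.6% to 40.1%). It overlapped that of wild type (26.7% to 37.5%).

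**Figure D3:**
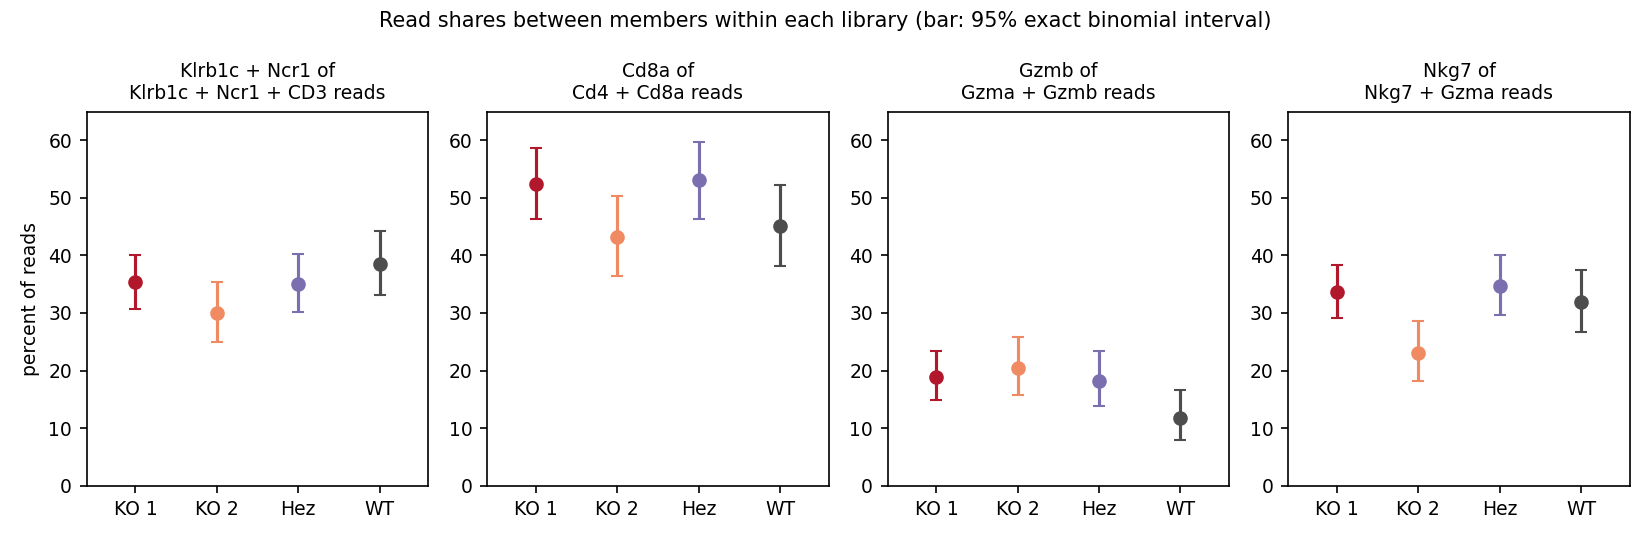
Share of reads (vertical axes, percent) that one member or pair takes within each library, in knockout libraries 1 and 2 (KO 1, KO 2), Hez and wild type (WT), with 95% exact binomial intervals. The Gzmb share is lowest in wild type at 11.8%, and the Nkg7 share is lowest in knockout 2 at 23.1%.

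Of 25 listed genes of T cell receptor signalling 22 were in the table under those names, all were tested, and 18 had a log2 fold above 0 against wild type, with a median of 0.16 and 0 called by edgeR (2 at an unadjusted p below 0.05). The adhesion receptor gene Cd2 stood at 0.45 (SE 0.187, edgeR adjusted p = 0.928) and Ptprc, which encodes the leukocyte phosphatase CD45, at 0.24. Ptprc alone made up 33.84% to 37.65% of the list's summed CPM. Rasgrp1, an activator of Ras in lymphocytes, stood at -0.33. Among 12 genes of naive and memory T cells 11 lay above 0, with a median of 0.21 and 0 called (2 unadjusted). Ccr7, a receptor that guides T cells to lymph nodes, stood at 0.55 (SE 0.194, adjusted p = 0.812), Thy1 at 0.50 and the transcription factor gene Ets1 at 0.20.

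The wider cytotoxic and NK lists gave different pictures. Of 12 tested cytotoxic genes 8 lay above 0 against wild type, with a median of 0.13, 0 called and 3 at an unadjusted p below 0.05. These were Serpinb6b, a serpin gene, at 0.39 (SE 0.107, edgeR adjusted p = 0.575), the granzyme B inhibitor gene Serpinb9 at 0.25, and Ctsc, whose protease cathepsin C activates granzymes, at 0.32. Ctsw, a protease of cytotoxic lymphocytes, stood at 0.33. Serpinb6b, Serpinb9 and Ctsc stood at 118.5 to 431.6 CPM over the libraries, against 5.74 to 8.12 CPM for Ctsw. Ctsc alone made up 50.5% to 51.1% of the list's summed CPM. The 4 genes below 0, named after their values were seen, were Gzmm at -0.44, Fasl at -0.23, Cst7 at -0.14 and Ccl5 at -0.06. Gzmc was at 0 reads in every library. Of 24 NK receptor and adaptor genes 11 lay above 0 and 13 below, with a median of -0.06, 0 called and 4 unadjusted. The adaptor gene Fcer1g stood at 0.45 (adjusted p = 0.831), Il2rb at 0.37, and the receptors Klra4 and Klrb1f at -1.24 and -1.19, at 3.40 CPM or less in every library and with near relatives that can share reads. Fcer1g had 25.2 to 40.0 CPM over the libraries, against 2.45 to 4.98 CPM for Klrb1c and Ncr1. Tyrobp alone made up 25.0% to 27.7% of the list's summed CPM. By library, the list's median difference from wild type was 0.15 (knockout 1) and -0.32 (knockout 2), the same order as for Klrb1c and Ncr1.

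Regulatory T cell genes had a median of -0.03 (3 of 7 tested above 0, 0 called, 2 unadjusted), with Foxp3 at 0.676 and 0.629 CPM in the knockout libraries, 1.03 in Hez and 1.98 in wild type. Ctla4, an inhibitory receptor gene named after its values were seen because it lay the other way at under 1 CPM on average, had 1.41 and 1.13 CPM in the knockout libraries, 0.847 in Hez and 0.309 in wild type. The log2 folds over wild type were -1.59 for Foxp3 (SE 0.638, edgeR adjusted p = 0.908) and 2.02 for Ctla4 (SE 0.843, adjusted p = 0.942). Il2ra stood at 0.51, Icos at 0.34 and Ikzf2 at -0.06. By library, this list's median difference from wild type was -0.18 (knockout 1) and 0.11 (knockout 2), by this measure the opposite order to that of the 10 genes. Taken gene by gene, knockout 1 lay above knockout 2 by a median of 0.09, the same direction as for the 10 genes (0.38). Of 9 tested genes of innate-like T and innate lymphoid cells 1 was called, Zbtb16, a transcription factor of innate-like T cells that other cell types express as well. It had 11.4 and 9.44 CPM in the knockout libraries, 129 in Hez and 190.0 in wild type, and fell by 4.19 on the log2 scale against wild type (SE 0.124, edgeR adjusted p = 9.14e-06). Sox13 and Il1rl1, with log2 folds of -0.15 and 0.30, did not pass. Among 13 tested genes of signals that recruit or sustain T and NK cells 5 lay above 0, with a median of -0.03, 0 called and 0 unadjusted. Il12a stood at -0.91, Ccl21a at 0.15, Cxcl9 at -0.80 and Ccl3 at -0.51. Cxcl10, a ligand of the same receptor as Cxcl9, was named after its values were seen and stood at 1.29 (SE 0.902, edgeR adjusted p = 0.996), also at under 1 CPM on average.

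Summed B cell markers had 292 and 216 CPM in knockout libraries 1 and 2, 199.3 in Hez and 199.6 in wild type, and 9 of 10 tested were highest in knockout 1. Monocyte markers had 7523 and 6277 CPM in the knockout libraries, 5997 in Hez and 6081 in wild type, with 7 of 8 highest in knockout 1. Lyz2, which macrophages and alveolar type 2 cells express as well, made up 94.7% to 95.2% of that sum, and the other 7 genes summed to 360.0 and 332 CPM in the knockout libraries, 293 in Hez and 295 in wild type. Neutrophil markers had 449 and 146 CPM in the knockout libraries, 259 in Hez and 273 in wild type, with 7 of 7 highest in knockout 1, and they lay 1.95 apart on the log2 scale between the knockout libraries by their median. Alveolar macrophage markers differed in order, at 978 and 1304 CPM in the knockout libraries, 738 in Hez and 749.6 in wild type, with Chil3 at 67.9% to 78.1% of the sum. Dendritic cell markers had 226 and 229 CPM in the knockout libraries, 218 in Hez and 206 in wild type. Mast cell and basophil markers had 261 and 304 CPM in the knockout libraries, 298 in Hez and 279 in wild type, of which Kit, a gene not specific to these cells, made up most (up to 95.8% in a library). Without Kit they summed to 12.6 and 15.2 CPM in the knockout libraries, 12.5 in Hez and 13.0 in wild type. Plasma cell markers had 8.61 and 12.7 CPM in the knockout libraries, 9.26 in Hez and 13.2 in wild type.

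In these 7 leukocyte lists 0 genes were called against wild type by edgeR, with 1 B cell, 2 monocyte, 1 alveolar macrophage and 2 dendritic cell genes at an unadjusted p below 0.05. Fcer2a of B cells stood at 0.60, Csf3r of neutrophils at 0.42, Ms4a6c of monocytes at 0.57, Chil3 of alveolar macrophages at 0.76, Itgax of dendritic cells at 0.33 and Jchain of plasma cells at -0.55. Thymus markers summed to 2.52 and 1.89 CPM in the knockout libraries, 1.27 in Hez and 1.67 in wild type, with the thymus genes Ptcra, Foxn1 and Psmb11 at 0 reads in every library. The genes listed for lymph node summed to 83.7 and 53.8 CPM in the knockout libraries, 65.2 in Hez and 121.5 in wild type. Glycam1 was at 0 reads. Lactoferrin (Ltf) made up 89.15% to 93.33% of that sum, which therefore mostly follows that gene. Without Ltf the list summed to 6.27 and 3.59 CPM in the knockout libraries, 7.08 in Hez and 10.9 in wild type. Globin genes with Alas2, a list added after the values were seen, summed to 2047 and 2296 CPM in the knockout libraries, 2358 in Hez and 2454 in wild type, so knockout 1 was the lowest there. Proliferation genes summed to 90.5 and 78.6 CPM in the knockout libraries, 87.1 in Hez and 99.0 in wild type. The part of other cell types in the T and NK values was not tested.

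**Figure D4:**
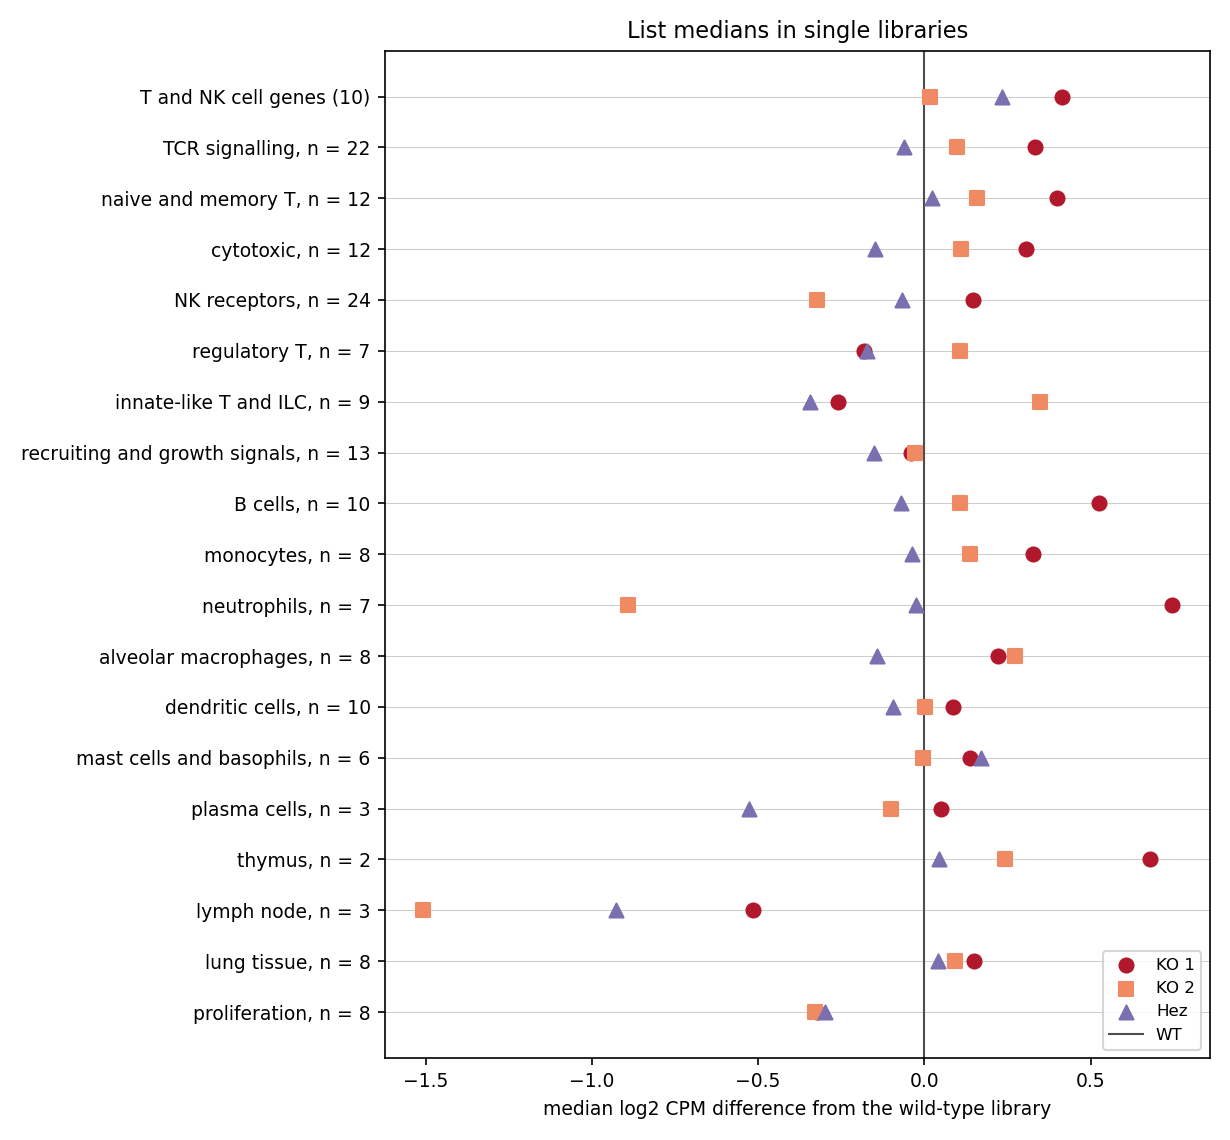
Median difference in log2 CPM from the wild-type library (horizontal axis, vertical line at 0) for knockout 1 (KO 1, circles), knockout 2 (KO 2, squares) and Hez (triangles), for the 10 T and NK cell genes and all 18 lists of other genes, with the number tested. By these medians knockout 1 lies above knockout 2 in 14 of the 18 lists, by most for neutrophils. It lies below for regulatory T cells, innate-like T and innate lymphoid cells (ILC), recruiting and growth signals, and alveolar macrophages. The order depends on the measure. Taken gene by gene, the median of knockout 1 minus knockout 2 is positive for regulatory T cells (0.09) and recruiting signals (0.08). It is negative for dendritic cells (-0.03).

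The CD3 genes' mean profile over the 4 libraries was 0.23 and -0.04 in knockout libraries 1 and 2, 0.03 in Hez and -0.23 in wild type, in log2 CPM about each gene's mean. The 5 genes nearest to it by Euclidean distance among 12080 genes at 5 CPM or more were Efs, Kctd21, Asb3, Tmem39b and Nrros, at 0.01 to 0.05. The nearest CD3 gene itself, Cd3e, was at 0.13, and 111 other genes (0.919%) were nearer. For the mean profile of Gzma, Nkg7, Klrb1c and Ncr1 the nearest genes were Nrap, Cmah, Tagap, Apobr and Tex9, at 0.04 to 0.09, and 17 genes (0.141%) were nearer than Klrb1c, at 0.14. With 4 libraries such nearness is a description only.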

How the data were processed

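Per the labels' protocols, total RNA of lung went into TruSeq libraries and onto an Illumina HiSeq. The deposited table holds raw read counts per gene from the authors, and FPKM values from the authors, which equal the count over the library total and gene length for 66024 of 66024 values above 0 (relative tolerance 1e-06). The build is GRCm39, per the submitters' processing notes; its aligner, counter, annotation and strandedness remain not given in the sources used here. Promoters come from GRCm38.p6, and no coordinates were converted.

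Counts were filtered with filterByExpr (minimum count 10), scaled by TMM and tested with edgeR 4.0.16 (R 4.3.3): glmQLFTest on 3 groups, or on 2 with wild type and Hez together, two-sided, Benjamini-Hochberg over all genes. Standard errors are the fold over the square root of F. Values of single libraries are log2 CPM with a prior count of 2. Alternatives used DESeq2 1.42.0, limma 3.58.1 (voom, and log2 FPKM with pseudocounts), other scalings and filters, and each library left out. The edgeR test against wild type and against both groups was also run on simulated counts. All simulated libraries were given the same spread for a gene, so that run cannot show how a lone wild-type library varies. Every pair of libraries differed beyond counting noise (mean chi-square per gene 8.23 to 12.1). The value was 10.3 between the knockout libraries and 8.33 between Hez and wild type. Knockout 1 stood at 8.23 from Hez and 8.68 from wild type, and knockout 2 at 11.1 and 12.1. Replicate numbers follow sample order and pair nothing. With no label stating separate animals, p-values reflect only variation among these libraries, possibly technical.

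All 10 members and lists were chosen with earlier results of these data known. Named genes were the members, called list genes, or otherwise up to 4 per list of T and NK genes (up to 2 per other list) with the smallest p against wild type at 1 CPM or more. Some genes that this rule names are not reported here. The T cell receptor and immunoglobulin constant genes and Fdcsp of the lists were not matched by name and were not analysed here.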

Additional observations from a re-analysis of the deposited data

How the results depend on the processing

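The count of 0 called members held under every setting run with a test: 10 for knockout against wild type, 10 against Hez and 13 against both together. Among these settings, DESeq2 gave no member an adjusted p against wild type or against both together. Its 0 in those comparisons was therefore fixed in advance. With a mean of at least 10 CPM required, Gzma was the 1 member left. The count of all genes called against wild type (8) was 4 with no filter or a mean of 10 CPM, 16 with the DESeq2 Wald test, and 1 with limma on log2 FPKM at each of 3 pseudocounts. Against Hez (1) it was 7 with DESeq2 and 0 with limma on FPKM. Against both (2) it was 1 with the 10 CPM filter, limma-voom and FPKM pseudocounts of 0.5 and 0.1, 0 with a pseudocount of 1, 33 with DESeq2, and 1 to 107 with a library left out (107 without knockout 1, 24 without knockout 2, 8 without Hez and 1 without wild type). The cause was not tested.

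Nkg7 changed sign against wild type with limma-voom (-0.0390) and with limma on log2 FPKM (-0.0467, -0.0561 and -0.0373 at pseudocounts of 0.5, 0.1 and 1). With a knockout library left out of the 3-group fits no residual degree of freedom remained, so these are folds without a test. Against wild type they ranged from -0.63 to 0.54 for Nkg7, -0.33 to 0.42 for Klrb1c, -0.30 to 0.25 for Ncr1 and -0.0040 to 0.58 for Cd8a. Against Hez they ranged from -0.86 to 0.31 for Nkg7, -0.62 to 0.13 for Klrb1c, -0.24 to 0.32 for Ncr1, -0.36 to 0.22 for Cd8a, -0.0784 to 0.27 for Cd3d, -0.0951 to 0.0452 for Cd3e, -0.0639 to 0.27 for Cd3g and -0.0433 to 0.39 for Gzma. Against both, with any library left out, they ranged from -0.75 to 0.42 for Nkg7, -0.48 to 0.27 for Klrb1c, -0.27 to 0.28 for Ncr1, -0.20 to 0.39 for Cd8a, -0.0265 to 0.32 for Cd3d, -0.0244 to 0.23 for Cd3e and -0.0185 to 0.41 for Gzma. The higher values came without knockout 2 and the lower ones without knockout 1 when either wild type or Hez stood alone on the other side. Gzmb and Cd4 kept a positive sign in all 3 comparisons, from 0.69 to 1.23 and from 0.07 to 0.15 against wild type.

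No paired analysis was possible because the labels give no replicate numbers. With 28 to 283 reads per gene and library, and 1 library each of Hez and wild type, the intervals were wide. Even the log2 fold of 1.09 for Gzmb against wild type did not pass in edgeR after adjustment over all genes. Differences of that size or smaller can therefore have been missed.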
